A study of Mus musculus with 6 samples.

Results

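Platelets and their parent cells, megakaryocytes, share a set of genes for adhesion, granule cargo and activation signalling. The expression of 33 such genes was followed in LT-HSCs, long-term hematopoietic stem cells, which self-renew in the marrow and give rise to every blood lineage. The genes were taken by symbol from a roster of platelet and megakaryocyte function that was chosen with earlier results of these data known. All 33 had a row among the 47561 genes of the deposited tables. They comprised 12 adhesion receptors and surface proteins, 9 genes of granule contents and granule machinery, 10 signalling genes and 2 genes of transcription and platelet shedding. The libraries came from marrow LT-HSCs of mice titled Piezo1 knockouts (KO, 3 libraries) and of control mice labelled WT (3 libraries). Piezo1 encodes a calcium-permeable ion channel that opens under mechanical force. For KO replicates 2 and 3 the genotype field names Piezo2 and Piezo3, while all 3 titles say Piezo1 KO, and the titles were followed here. Age, strain, the deleted part of the gene and the driver of the deletion are not given in the sources used here, nor whether each library came from its own mouse. The p-values therefore measure only the spread between these libraries, which may be technical.

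Platelets stick to injured vessel walls through the glycoprotein Ib-IX-V complex, which binds von Willebrand factor, and through the collagen receptor GPVI. Activation by collagen, thrombin, ADP and thromboxane then opens the integrin made of Itga2b and Itgb3, which binds fibrinogen, and empties alpha and dense granules. Part of the LT-HSC pool is known to carry platelet transcripts such as Vwf and Itga2b and to be biased towards making platelets, so these genes can be read in stem cells as well as in mature megakaryocytes.

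The libraries held 59435258 to 60027480 counts in KO and 60589306 to 64653956 in control. Values below are CPM, read counts scaled to a common library size after TMM normalisation, and are listed in the order of replicates 1, 2 and 3. Piezo1 itself stood at 4.28, 7.99 and 9.46 CPM in KO and at 17.0, 7.02 and 24.3 CPM in control (edgeR adjusted p = 0.508), so control replicate 2 lay inside the KO range and the groups are named as labelled. All 14 LT-HSC markers looked at had counts, with a sum of 1093 to 1313 CPM in KO and 1185 to 1610 CPM in control, and 10 had negative log2 fold changes. Ly6a had 89.2, 206 and 72.8 CPM in KO, against 324, 373 and 284 CPM in control (log2 fold change -1.41, edgeR adjusted p = 0.297, DESeq2 adjusted p = 0.00720). Procr had 9.68, 26.7 and 4.99 CPM in KO, against 67.1, 56.5 and 22.6 CPM in control. Kit had 323, 293 and 344 CPM in KO, against 106, 223 and 226 CPM in control. Ly6a was thus lower and Kit higher in every KO library, and the Procr groups overlapped. Of 12 erythroid markers all had counts, with sums of 8409 to 27156 CPM in KO and 3440 to 6885 CPM in control, and 4 globin genes alone summed to 24428, 9173 and 7081 CPM in KO and to 282, 1241 and 3831 CPM in control. All 12 granulocyte markers had counts too, with sums of 120.2 to 1177 CPM in KO and 177 to 12375 CPM in control, and 7 neutrophil granule genes among them summed to 5.13, 437 and 1081 CPM in KO, and to 13.1, 57.9 and 12232 CPM in control. Control replicate 3 thus stood apart in neutrophil transcripts, and the summed globins were higher in every KO library. The other 8 erythroid markers summed to 2729, 1703 and 1328 CPM in KO, against 3157, 2595 and 3054 CPM in control. Most of this sum came from 1 gene, Car2, which was lower in every KO library. Car2 had 2266, 1474 and 1160 CPM in KO, against 2857, 2345 and 2640 CPM in control. The sum therefore says little of the other erythroid markers. Of all 12, globins included, 9 had positive and 3 negative log2 fold changes. Alas2 had 58.1, 18.4 and 3.45 CPM in KO, against 0, 13.3 and 3.90 CPM in control, with overlap. The part of these differences in the values below was not tested. Macrophage and monocyte markers summed to 314 to 562 CPM in KO and 514 to 1439 CPM in control, and counts were found for 7 of 8 B cell, 6 of 8 T and NK cell, 4 of 8 mast cell and basophil and 7 of 9 endothelial and stromal markers. B cell markers summed to 33.7 to 38.1 CPM in KO and 31.1 to 89.1 CPM in control. T and NK cell markers summed to 247 to 263 CPM in KO and 131 to 209 CPM in control, nearly all from Nkg7, which was higher in every KO library. Mast cell and basophil markers, mostly Gata2, summed to 139 to 197 CPM in KO and 89.4 to 124 CPM in control. Endothelial and stromal markers summed to 54.1 to 69.7 CPM in KO and 36.4 to 71.0 CPM in control. Igll1, Cd8a, Gzma, Mcpt8, Prss34, Mcpt4, Tpsb2, Cdh5 and Lepr were at 0 in all 6 libraries.

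KO LT-HSC libraries held more of many platelet transcripts than control libraries, though none of these genes met an adjusted p of 0.05 in edgeR. Pf4, the platelet chemokine stored in alpha granules, averaged 1725 ± 360.4 CPM in KO libraries, against 706 ± 123 CPM in control libraries (n = 3 each, SD). Itga2b averaged 116 ± 28.3 CPM in the KO libraries, against 37.8 ± 9.11 CPM in control. Serpine2, a secreted inhibitor of thrombin and other serine proteases, averaged 56.6 ± 11.1 CPM in the KO libraries, against 20.8 ± 0.353 CPM in control. The other way, Cd63, a tetraspanin of granule and lysosome membranes, averaged 266 ± 29.3 CPM in KO libraries, against 371 ± 32.1 CPM in control. At an adjusted p under 0.05, edgeR's quasi-likelihood test called 0 of 16022 genes (0%).

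Of the 33 genes, 31 passed the filter on low counts. Their log2 fold changes of KO over control were positive in 28 and negative in 3, with a median of 0.78, against a median of 0.03 over all genes tested. By unadjusted p under 0.05 in edgeR, 16 were higher in KO and 1 was lower, while over all genes tested 5.44% were higher and 5.59% lower. In 18 genes every KO library lay above every control library, a pattern that held for 10.7% of all genes tested. Cd63 was the 1 gene with every KO library below every control library, which held for 8.76% of all genes. DESeq2 called 9 of the genes higher and 1 lower at an adjusted p under 0.05, where it called 2.26% of genes higher and 2.35% lower overall. The calls were Pf4, Serpine2, Itga2b, Itgb3, Vwf, Thbs1, Treml1, Gp1bb and Rab27b as higher and Cd63 as lower. Of the 31, Mpig6b, Thbs1, P2ry12 and Clec1b passed the filter through their KO libraries alone, so a difference was built into their selection. Without these 4, 14 of 27 genes were higher and 1 lower by unadjusted p, 15 were separate and higher in KO, and the median log2 fold change was 0.73. In bulk libraries, a larger share of cells that carry a transcript and more RNA per cell cannot be told apart.

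**Figure D1:**
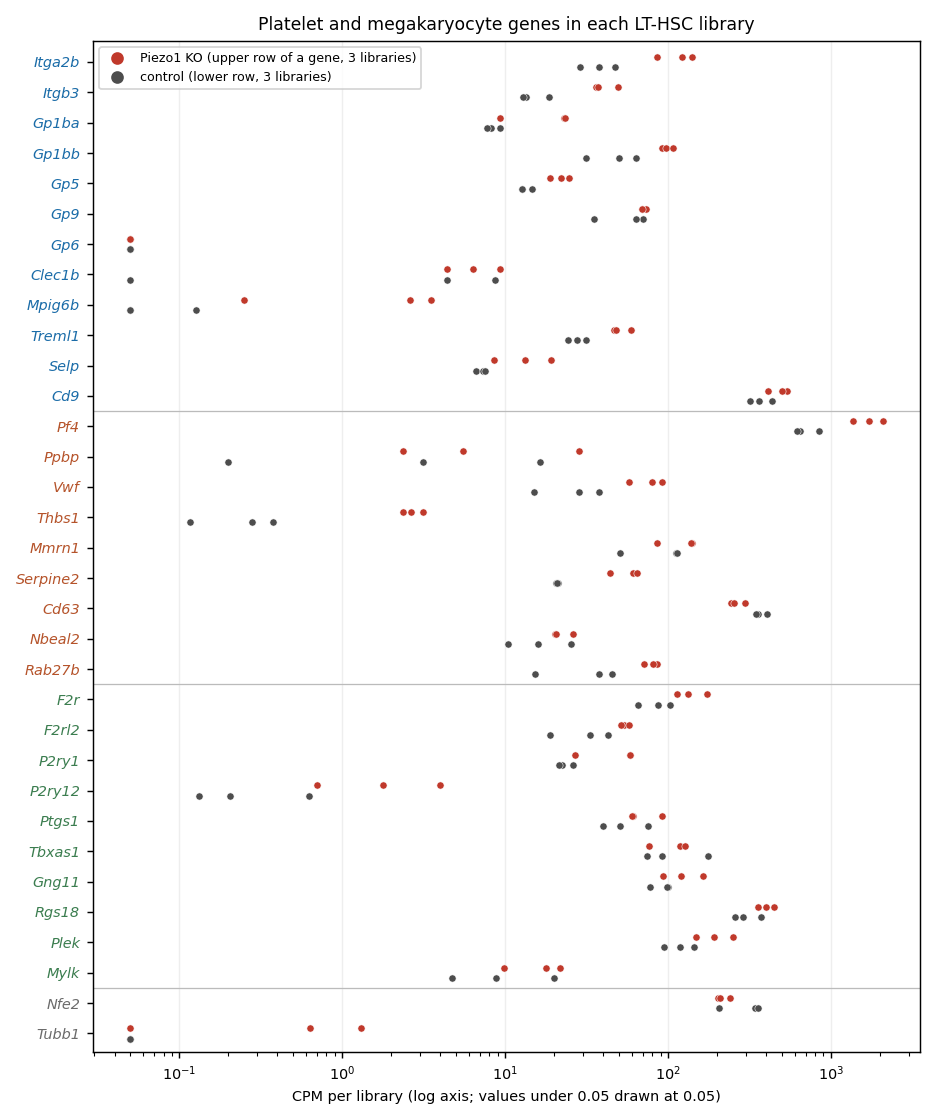
CPM of the 33 genes in each library on a log axis, with the 3 Piezo1 KO libraries in the upper row of each gene and the 3 control libraries in the lower row. Gene names are coloured by role, in blocks for adhesion receptors, granule contents and machinery, signalling, and transcription and platelet shedding. KO points of Itga2b, Pf4 and Serpine2 lie to the right of all control points, while those of Gp9 and Tbxas1 mix with them and those of Cd63 lie to the left.

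The promoters of the genes with the smallest p are shown because all KO libraries were above all control libraries for each of these genes. Of the 4, which were Serpine2, Pf4, Itga2b and Itgb3, the first 3 are printed, from 250 bases before to 50 bases after the start, as RefSeq gives them for GRCm38.p6, 5′ to 3′ on the strand of the gene. Capitals mark matches to a GATA motif (AGATAA or TGATAA) and to an ETS motif (AGGAAG or CGGAAG), each searched on both strands. GATA factors and ETS factors such as Fli1 are known regulators of megakaryocyte genes.

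Pf4, chr5:90772185-90772484, plus strand: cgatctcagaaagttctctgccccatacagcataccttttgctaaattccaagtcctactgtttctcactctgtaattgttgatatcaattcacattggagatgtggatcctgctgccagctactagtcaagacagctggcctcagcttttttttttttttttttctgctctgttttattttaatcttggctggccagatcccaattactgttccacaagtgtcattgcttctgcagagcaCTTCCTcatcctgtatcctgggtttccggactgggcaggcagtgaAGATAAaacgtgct
Itga2b, chr11:102469834-102470133, minus strand: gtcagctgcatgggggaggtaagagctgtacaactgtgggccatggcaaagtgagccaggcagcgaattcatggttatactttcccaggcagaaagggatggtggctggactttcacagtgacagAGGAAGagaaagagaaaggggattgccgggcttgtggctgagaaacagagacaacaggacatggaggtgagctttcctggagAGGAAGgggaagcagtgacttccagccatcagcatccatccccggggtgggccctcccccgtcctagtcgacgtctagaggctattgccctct
Serpine2, chr1:79858616-79858915, minus strand: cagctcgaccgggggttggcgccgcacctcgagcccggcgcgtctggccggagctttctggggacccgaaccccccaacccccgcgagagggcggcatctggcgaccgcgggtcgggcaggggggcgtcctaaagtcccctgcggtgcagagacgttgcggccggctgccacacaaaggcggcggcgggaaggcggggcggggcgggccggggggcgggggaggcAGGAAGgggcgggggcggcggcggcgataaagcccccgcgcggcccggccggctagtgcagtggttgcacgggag

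Pf4 held an ETS match on the opposite strand starting 9 bases before the start and a GATA match at base 37 after it. Itga2b held ETS matches starting 125 and 43 bases before the start, and Serpine2 held an ETS match starting 25 bases before it. No printed match overlaps another. Of the 26 genes of the roster with a promoter in the table, 8 held the GATA motif and 17 the ETS motif in this window. Over all 27025 promoters of the table, 19.0% held the GATA motif and 46.4% the ETS motif. A match says only that these letters are present.

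Among adhesion receptors, the pair that forms the fibrinogen receptor was higher in every KO library. Itga2b, its alpha subunit, had 85.2, 122 and 141 CPM in KO against 28.8, 47.0 and 37.7 CPM in control. Its partner Itgb3 had 36.3, 37.4 and 49.5 CPM in KO against 13.5, 18.6 and 12.9 CPM in control. The groups did not overlap for either gene, and KO replicate 3 was the highest library for both. The log2 fold changes were 1.62 (SE 0.27) for Itga2b and 1.45 (SE 0.28) for Itgb3, each with an edgeR adjusted p = 0.255. Within a library, the ratio of Itga2b to Itgb3 counts was 2.35, 3.27 and 2.84 in KO and 2.14, 2.53 and 2.93 in control, so the 2 subunits kept overlapping proportions while both were higher in KO.

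The 4 genes of the glycoprotein Ib-IX-V complex differed among themselves. Gp1bb, its small disulfide-linked chain, had 92.2, 97.7 and 108 CPM in KO against 63.7, 31.2 and 50.4 CPM in control. Gp1ba, the chain that binds von Willebrand factor, had 9.31, 23.1 and 23.3 CPM in KO against 9.24, 8.22 and 7.73 CPM in control. Both sets of values were separate between groups, but for Gp1ba KO replicate 1 lay only just above control replicate 1. Gp5, a thrombin-cleaved subunit, had 22.1, 18.8 and 24.8 CPM in KO against 12.7, 12.8 and 14.6 CPM in control, again without overlap. Gp9, which stabilises the complex at the surface, had 69.5, 73.7 and 69.7 CPM in KO against 70.0, 63.2 and 35.0 CPM in control. Its groups overlapped, since control replicate 1 lay within the KO range and control replicate 3 alone was far lower. The log2 fold changes were 1.03 (SE 0.28), 1.14 (SE 0.44), 0.71 (SE 0.28) and 0.34 (SE 0.27) for Gp1bb, Gp1ba, Gp5 and Gp9, with edgeR adjusted p-values of 0.281, 0.407, 0.425 and 0.734. Without control replicate 3 the log2 fold change of Gp9 was 0.09. The difference between Gp1bb and Gp9 was not tested, and their count ratio was 1.33, 1.32 and 1.55 in KO and 0.909, 0.493 and 1.44 in control. Gp1bb has exons shared with Septin5 and with Gm49601, both on the same strand. Septin5 had at most 0.192 CPM in any library, and the level of Gm49601 was not looked at.

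Treml1, a receptor-like protein of alpha granules, had 46.7, 48.1 and 58.9 CPM in KO against 31.6, 27.5 and 24.3 CPM in control. Selp, P-selectin, which tethers activated platelets to leukocytes, had 19.0, 8.52 and 13.2 CPM in KO against 6.64, 7.34 and 7.57 CPM in control. Neither gene overlapped between groups, although Selp varied more than 2-fold among KO libraries. The log2 fold changes were 0.88 (SE 0.22, edgeR adjusted p = 0.267) for Treml1 and 0.92 (SE 0.43, edgeR adjusted p = 0.494) for Selp. Cd9, a tetraspanin of the platelet surface, had 412, 536 and 502 CPM in KO against 438, 364 and 320.0 CPM in control. KO replicate 1 lay below control replicate 1 for Cd9, and the log2 fold change was 0.37 (SE 0.18, edgeR adjusted p = 0.514).

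Receptors of the collagen and podoplanin pathways were at low levels or had no counts. Clec1b, the podoplanin receptor, had 9.32, 4.42 and 6.35 CPM in KO against 4.37, 8.72 and 0 CPM in control. Clec1b has exons shared with Clec9a on the same strand. Clec9a had 0, 2.09 and 2.37 CPM in KO against 0, 0.0586 and 0.0539 CPM in control. Mpig6b, an inhibitory receptor needed for megakaryocyte maturation, had 209, 15 and 163 counts in KO against 0, 0 and 7 counts in control. Mpig6b shares exonic sequence with Ly6g6c on the opposite strand. Gp6, the collagen receptor GPVI, had 0 counts in all 6 libraries, which allows at most 0.0440 to 0.0539 CPM, the value of 3 counts per library. The groups overlapped for Clec1b, and leaving out control replicate 3, the library at 0, gave a log2 fold change of 0.03, against 0.62 with all libraries (SE 1.54, edgeR adjusted p = 0.940). For Mpig6b the groups did not overlap, and its edgeR adjusted p was 0.407, and KO replicate 2 held far fewer counts than the other KO libraries.

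**Figure D2:**
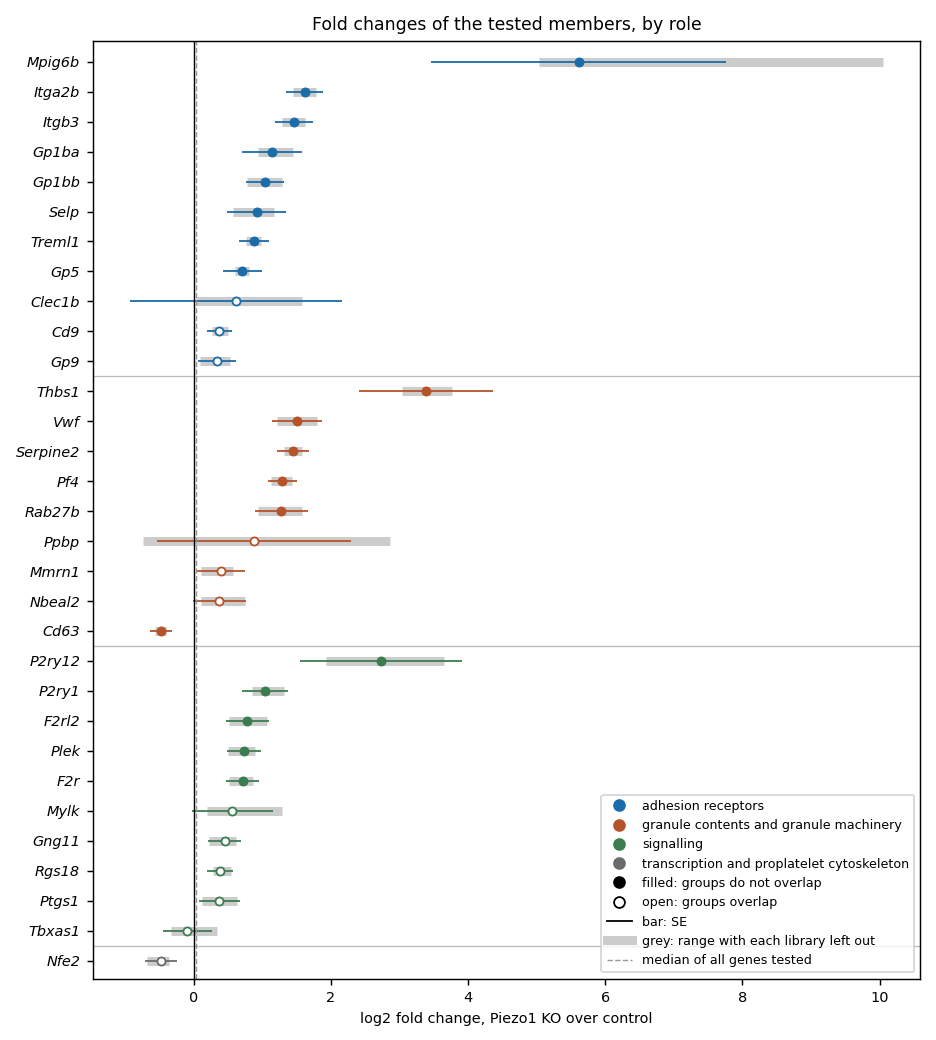
Log2 fold changes of KO over control for the 31 tested genes, grouped by role, from edgeR with SE bars (derived from the F statistic). Grey bands span the 6 fits that each left out 1 library, filled points mark genes whose groups do not overlap, and the dashed line is the median of all genes tested at 0.03. Points sit right of the line for 28 genes, Cd63, Nfe2 and Tbxas1 sit left of it, and the bands of Ppbp and Tbxas1 cross 0.

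Among granule cargo, the chemokine pair Pf4 and Ppbp differed in pattern. Pf4 had 1364, 2084 and 1726 CPM in KO against 847, 651 and 620.4 CPM in control, with a log2 fold change of 1.29 (SE 0.21, edgeR adjusted p = 0.255). Its lowest KO library was above its highest control library. Ppbp, the platelet basic protein, is encoded 2371 bases from Pf4 on chromosome 5 and belongs to the same chemokine family. Ppbp had 2.36, 28.3 and 5.52 CPM in KO against 16.3, 3.12 and 0.198 CPM in control. These groups overlapped, with KO replicate 2 and control replicate 1 high. The ratio of Pf4 to Ppbp was 577, 73.7 and 313 in KO and 51.8, 209 and 3138 in control, so the neighbours kept no constant proportion. Both were highest in KO replicate 2 and lowest in control replicate 3. The log2 fold change of Ppbp was 0.88 (SE 1.41), and it was -0.73 without KO replicate 2.

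Vwf, von Willebrand factor, had 57.7, 79.7 and 91.5 CPM in KO against 15.1, 37.5 and 28.3 CPM in control. Serpine2 had 44.0, 60.8 and 65.0 CPM in KO against 21.1, 20.4 and 20.8 CPM in control. The groups were separate in both genes, and the control libraries of Serpine2 were almost equal. Log2 fold changes were 1.50 (SE 0.36, edgeR adjusted p = 0.259) for Vwf and 1.44 (SE 0.23, edgeR adjusted p = 0.255) for Serpine2. Thbs1, thrombospondin, an adhesive alpha-granule glycoprotein, was low throughout, with 158, 188 and 147 counts in KO against 7, 19 and 21 counts in control. The counts did not overlap, and the log2 fold change was 3.39 (SE 0.97, edgeR adjusted p = 0.310), for a gene that passed the filter through KO alone. Mmrn1, multimerin, which binds coagulation factor V in alpha granules, had 86.2, 141 and 138 CPM in KO against 112, 114 and 50.8 CPM in control. KO replicate 1 lay below control replicates 1 and 2 for Mmrn1, and the log2 fold change was 0.40 (SE 0.35, edgeR adjusted p = 0.758).

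Genes that build and move granules were mixed. Rab27b, a small GTPase of dense-granule secretion, had 71.4, 85.8 and 80.5 CPM in KO against 45.1, 37.9 and 15.3 CPM in control. Nbeal2, needed to form alpha granules, had 20.3, 20.5 and 26.0 CPM in KO against 10.4, 25.3 and 15.8 CPM in control. The groups were separate for Rab27b, with control replicate 3 the lowest, and overlapped for Nbeal2. Log2 fold changes were 1.27 (SE 0.38, edgeR adjusted p = 0.321) for Rab27b and 0.37 (SE 0.38, edgeR adjusted p = 0.803) for Nbeal2. Without control replicate 3, the value for Rab27b was 0.93. With length and GC trends taken out of each library, Nbeal2 had a value of -0.42. Cd63 had 243, 299 and 256 CPM in KO against 408, 357 and 348 CPM in control, a log2 fold change of -0.48 (SE 0.16, edgeR adjusted p = 0.360). Cd63 is made in many cell types, and it stayed between -0.57 and -0.41 in the fits that each left out 1 library.

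Pf4 alone made up 35.2%, 39.9% and 35.2% of the summed CPM of the 33 genes in KO, and 24.7%, 20.98% and 24.9% in control. The sum over all 33 was 3879, 5228 and 4897 CPM in KO against 3424, 3103 and 2494 CPM in control, without overlap. Without Pf4 the sums were 2515, 3144 and 3171 CPM in KO and 2578, 2452 and 1873 CPM in control, and KO replicate 1 lay below control replicate 1. The summed CPM separated the groups with Pf4 included and not without it, while the gene-by-gene values of Itga2b, Itgb3, Vwf, Serpine2, Treml1 and Rab27b were separate on their own. Per kilobase of merged GENCODE exons, Pf4 was also the most abundant of the 33, with a mean level of 2392 CPM per kb in KO and 979 in control. Cd9 followed with 237 CPM per kb in KO and 183 in control.

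**Figure D3:**
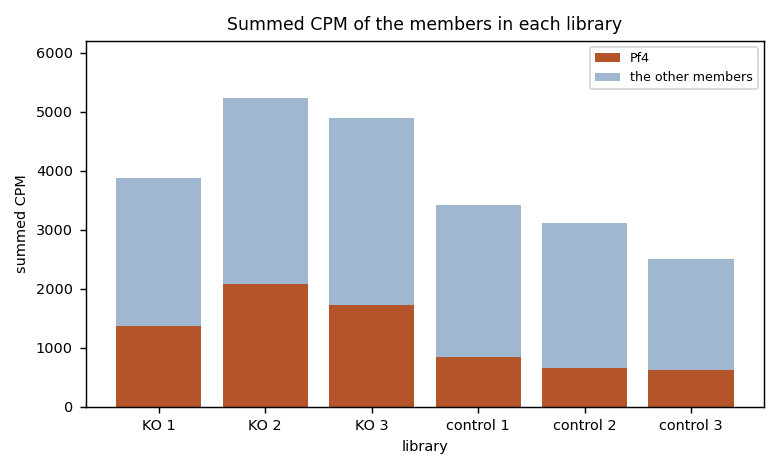
Summed CPM of the 33 genes in each library, with Pf4 as the lower part of each bar and the other 32 genes above it. The KO bars reach 3879 to 5228 CPM and the control bars 2494 to 3424 CPM, and the upper parts of the bars overlap between groups.

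Among signalling genes, thrombin and ADP receptors had separate groups, and enzymes and regulators mostly did not. F2r, a thrombin receptor, had 114, 132 and 174 CPM in KO against 102, 87.4 and 65.6 CPM in control. F2rl2, a thrombin receptor that acts as a cofactor on mouse platelets, had 53.8, 58.0 and 51.5 CPM in KO against 43.0, 33.2 and 18.9 CPM in control. P2ry1, an ADP receptor coupled to calcium release, had 26.7, 58.1 and 58.8 CPM in KO against 22.4, 21.3 and 26.1 CPM in control. All KO libraries were above all control libraries for these 3 genes, by a narrow margin for P2ry1, where KO replicate 1 was close to control replicate 3. Their log2 fold changes were 0.71 (SE 0.24), 0.78 (SE 0.31) and 1.04 (SE 0.34), with edgeR adjusted p-values of 0.367, 0.428 and 0.360. P2ry12, the second platelet ADP receptor and the target of clopidogrel, had 106, 42 and 247 counts in KO against 8, 14 and 35 counts in control. These counts were separate but low, P2ry12 passed the filter through KO alone, and the edgeR adjusted p was 0.459. P2ry12 shares exonic sequence with Med12l on the opposite strand, which had 42.4, 35.4 and 33.2 CPM in KO against 21.2, 7.55 and 7.84 CPM in control, and the strand setting of the counting is not given.

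Downstream of the receptors, Plek, pleckstrin, the main protein kinase C substrate of platelets, had 149.5, 193 and 251 CPM in KO against 145, 118 and 94.7 CPM in control. The groups just missed each other, and the log2 fold change was 0.73 (SE 0.25, edgeR adjusted p = 0.372). Plek shares exonic sequence with Cnrip1 on the opposite strand, which had 14.3, 11.2 and 7.62 CPM in KO against 6.03, 14.4 and 2.46 CPM in control. Rgs18, which dampens G protein signals in platelets, had 355, 448 and 398 CPM in KO against 370.4, 288 and 259.6 CPM in control. Gng11, a G protein gamma subunit, had 93.4, 165 and 121 CPM in KO against 100.2, 99.3 and 77.5 CPM in control. For both, KO replicate 1 lay among the control libraries, and the log2 fold changes were 0.39 (SE 0.19) and 0.45 (SE 0.24), with edgeR adjusted p-values of 0.509 and 0.554. Mylk, myosin light chain kinase, had 9.89, 17.7 and 21.9 CPM in KO against 4.70, 8.76 and 20.1 CPM in control, with control replicate 3 inside the KO range.

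The 2 enzymes of thromboxane synthesis did not separate the groups. Ptgs1, the cyclooxygenase of platelets, had 61.2, 60.3 and 92.3 CPM in KO against 50.6, 75.0 and 39.9 CPM in control. Tbxas1, thromboxane synthase, had 76.4, 119 and 126 CPM in KO against 92.4, 177 and 74.5 CPM in control. In each gene control replicate 2 was above at least 2 KO libraries. The log2 fold changes were 0.37 (SE 0.30, edgeR adjusted p = 0.730) for Ptgs1 and -0.10 (SE 0.36, edgeR adjusted p = 0.964) for Tbxas1, whose sign changed without control replicate 2 (0.34).

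Nfe2, the transcription factor subunit needed for platelet shedding, had 239, 203 and 209.7 CPM in KO against 341, 359 and 206 CPM in control. Control replicate 3 lay among the KO libraries, and the log2 fold change was -0.47 (SE 0.23, edgeR adjusted p = 0.514). Tubb1, the tubulin of the platelet marginal band, had 78, 38 and 0 counts in KO and 0 counts in all 3 control libraries, and did not pass the filter on low counts. Its 2 KO libraries with counts and the KO library without any show how uneven this gene was within the KO group.

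**Figure D4:**
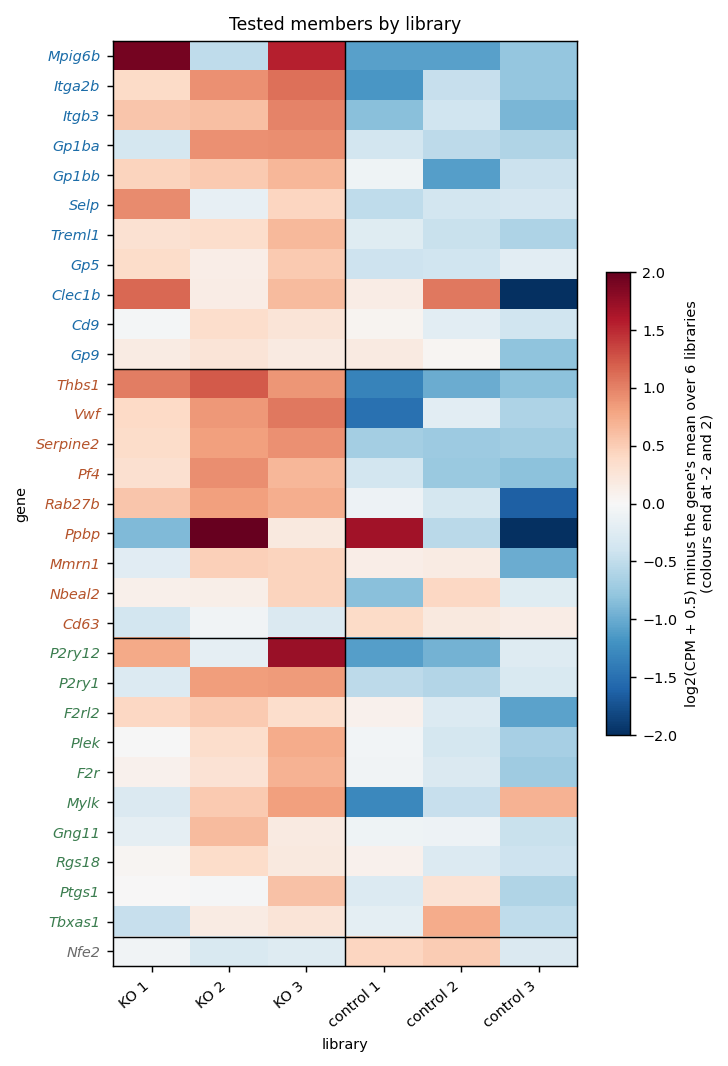
Centred log2 values of the 31 tested genes in each library, KO on the left, as log2(CPM + 0.5) minus the mean of the gene over the 6 libraries, with colours ending at -2 and 2. Red cells fill most of the KO columns and blue cells most of the control columns, the column of control replicate 3 is the bluest, and Cd63 runs the other way.

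The 28 genes averaging at least 5 CPM in their higher group also showed how the libraries differed. KO replicates 2 and 3 held the highest value for 9 and 14 of them and KO replicate 1 for 2, while control replicate 3 held the lowest value for 17. Over the 31 tested genes, the mean of the centred log2 values was 0.23, 0.46 and 0.62 in KO and -0.32, -0.27 and -0.72 in control. Without control replicate 3, the library rich in neutrophil transcripts, the median log2 fold change of these genes was 0.79, with 13 genes higher by unadjusted p, where 7.86% of all genes tested in that fit were higher. For adhesion receptors the mean of the centred values was 0.53, 0.32 and 0.72 in KO and -0.39, -0.36 and -0.82 in control. For granule genes it was 0.14, 0.85 and 0.56 in KO and -0.29, -0.31 and -0.95 in control. For signalling genes it was 0.0055, 0.35 and 0.64 in KO and -0.34, -0.22 and -0.43 in control. These 3 role groups did not overlap between KO and control by this measure, with KO replicate 1 near the middle for signalling. The means above include Mpig6b, Clec1b, Thbs1 and P2ry12, which passed the filter through KO alone. P2ry12, a signalling gene, had centred values of 0.75, -0.18 and 1.72 in KO against -1.10, -0.94 and -0.26 in control. Whether the role groups stay separate without these genes was not tested. Nfe2, the tested gene of the fourth role, had -0.07, -0.31 and -0.26 in KO and 0.44, 0.51 and -0.29 in control, which overlapped. Counted by role at an unadjusted p under 0.05, 7 of 11 tested adhesion genes were higher and 0 lower, 5 of 9 granule genes were higher and 1 lower, and 4 of 10 signalling genes were higher and 0 lower in edgeR. Over all genes tested, 5.44% were higher and 5.59% lower. Without the genes that passed the filter through KO alone, 6 of 9 adhesion genes, 4 of 8 granule genes and 4 of 9 signalling genes were higher. The medians of their log2 fold changes were 0.92, 1.27 and 0.64, and without those genes 0.92, 1.08 and 0.56. The signalling count was 0 without KO replicate 3 and 0 without control replicate 2.

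Other genes of the same pathways were read from lists set apart from the 33. For comparison with the counts of each list, 5.44% of all genes tested were higher in KO and 5.59% lower at an unadjusted p under 0.05 in edgeR. Of 20 tested megakaryocyte transcription factors, 7 passed an unadjusted p of 0.05 as higher in KO and 2 as lower (edgeR), with a median log2 fold change of 0.66. Fli1, an ETS factor of megakaryocytes, had 159, 216 and 207 CPM in KO against 94.6, 95.9 and 98.1 CPM in control. Mef2c, a MADS-box factor, had 349, 449 and 517 CPM in KO against 202, 199 and 249.8 CPM in control, both without overlap. Rbm15, an RNA-binding protein, averaged 67.5 ± 6.11 CPM in the KO libraries, against 37.0 ± 4.20 CPM in control (n = 3 each, SD). Nfe2l2, a relative of Nfe2 that drives the antioxidant response, was lower in KO, with 80.3 ± 6.36 CPM, against 141 ± 3.71 CPM in control. These 4 had groups that did not overlap, and each had an edgeR adjusted p = 0.255. The other factor counted as lower was Gfi1b, with 148, 115 and 100.3 CPM in KO against 231, 198 and 173 CPM in control. Its groups did not overlap either, and the log2 fold change was -0.73 (SE 0.20, edgeR adjusted p = 0.299). Of the 20 factors, 15 had positive and 5 negative log2 fold changes.

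Thrombopoietin is the cytokine that drives megakaryocyte growth. Of the 14 tested genes of this pathway, 3 passed an unadjusted p of 0.05 as higher in KO and 0 as lower, and the median log2 fold change was 0.41. Jak2, a cytokine receptor kinase, averaged 90.8 ± 10.8 CPM in the KO libraries and 41.7 ± 12.5 CPM in control (n = 3 each, SD). The adaptor Grb2 averaged 80.7 ± 17.0 CPM in KO cells and 35.1 ± 14.6 CPM in control. The transcription factor Stat5b averaged 54.6 ± 2.13 CPM in KO cells and 30.8 ± 10.7 CPM in control. The KO libraries of these 3 genes lay above the control libraries, with edgeR adjusted p-values of 0.255, 0.311 and 0.383. Gab2, an adaptor, had a log2 fold change of 0.63 (SE 0.39).

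Integrin activation and collagen receptor signalling had 7 of 26 tested genes past an unadjusted p of 0.05 as higher in KO and 0 as lower, with a median log2 fold change of 0.54. Rap1b, the small GTPase that switches on platelet integrins, had 601, 949.9 and 889 CPM in KO against 333, 409 and 407 CPM in control. Its groups were separate, with a log2 fold change of 1.09 (SE 0.21, edgeR adjusted p = 0.255). Rasgrp2, the exchange factor that loads Rap1b, averaged 67.4 ± 10.3 CPM in the KO libraries and 39.3 ± 9.84 CPM in control (n = 3 each, SD). Itga6, a laminin-binding integrin subunit, averaged 140.0 ± 28.0 CPM in KO cells and 71.0 ± 19.6 CPM in control. Lat, an adaptor of collagen receptor signalling, averaged 66.8 ± 17.0 CPM in KO cells and 37.9 ± 1.58 CPM in control. None passed the adjusted threshold in edgeR, the lowest adjusted p being that of Rap1b.

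Among 17 tested genes of thromboxane, ADP and G protein signalling, 3 passed an unadjusted p of 0.05 as higher in KO and 0 as lower, and the median log2 fold change was 0.45. These 3 were G protein alpha subunits. Gnaq averaged 54.6 ± 15.4 CPM in KO cells and 20.9 ± 5.04 CPM in control, Gnai2 averaged 149.8 ± 20.7 CPM in KO cells and 94.9 ± 19.3 CPM in control, and Gnaz averaged 7.41 ± 2.35 CPM in KO cells and 2.46 ± 0.787 CPM in control (n = 3 each, SD). Gnaq transmits signals of P2ry1 and the thrombin receptors, and its edgeR adjusted p was 0.255. Gna13, another alpha subunit, had a log2 fold change of 0.69 (SE 0.35). Of 27 tested genes of granule biogenesis and secretion, 5 passed an unadjusted p of 0.05 as higher in KO and 1 as lower, with a median log2 fold change of 0.30. Slc35d3, needed for platelet dense granules in mice, averaged 26.9 ± 9.46 CPM in the KO libraries, against 7.15 ± 2.66 CPM in control. Its groups did not overlap (log2 fold change 1.91, SE 0.45, edgeR adjusted p = 0.255). Timp3, a metalloproteinase inhibitor, averaged 47.0 ± 4.98 CPM in KO cells and 14.2 ± 9.22 CPM in control (n = 3 each, SD). Hps4, a subunit of a complex for lysosome-related organelles, averaged 23.8 ± 8.36 CPM in KO cells and 12.8 ± 2.43 CPM in control. Tgfb1, a cytokine stored in alpha granules, averaged 6.56 ± 2.73 CPM in KO cells and 2.24 ± 0.586 CPM in control.

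The megakaryocyte cytoskeleton list had 3 of 19 tested genes past an unadjusted p of 0.05 as higher in KO and 0 as lower, and a median log2 fold change of 0.25. Myh9, the non-muscle myosin of platelets, had 25.8, 40.8 and 32.7 CPM in KO against 9.72, 11.2 and 15.7 CPM in control. Every KO library exceeded every control library, and the log2 fold change was 1.44 (SE 0.32, edgeR adjusted p = 0.255). Zyx, a focal adhesion protein, averaged 145 ± 28.6 CPM in KO cells and 86.0 ± 1.67 CPM in control, and the formin Diaph1 averaged 114 ± 30.5 CPM in KO cells and 60.9 ± 8.70 CPM in control (n = 3 each, SD). Cdc42, a GTPase of megakaryocyte polarity, averaged 533 ± 71.1 CPM in the KO libraries, against 747 ± 197 CPM in control, with overlap. The genes named from these lists were those with the smallest p, and over the whole lists most groups overlapped. They overlapped in 12 of 20 transcription factors, 8 of 14 thrombopoietin pathway genes, 18 of 26 integrin and collagen receptor genes, 13 of 17 G protein genes, 20 of 27 granule biogenesis genes and 14 of 19 cytoskeleton genes. Over all genes tested, the groups were separate with KO higher in 10.7% and with KO lower in 8.76%, and overlapped in the rest.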

How the data were processed

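TRIZOL was used for extraction and a TruSeq kit for the libraries, per the labels' protocols, with no strand stated. The authors deposited raw counts per gene, 1 table per library. Tools listed without roles or settings, per the submitters' processing notes, were HISAT2 2.1, featureCounts 1.6.4, cutadapt 1.16.5, DESeq2 2.11.40.6 and bcl2fastq 2.19, with the build mm10; 2046 of the 47561 rows carry identifiers of an assembler's kind. The tests ran in edgeR 4.0.16 under R 4.3.3: filterByExpr by group, TMM scaling, and the quasi-likelihood F test over all 6 libraries, with Benjamini-Hochberg adjustment over all 16022 genes and a threshold of 0.05. SE is the absolute log2 fold change over the root of F. The floor of 3 counts covers counting error only.

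The genes and lists were chosen with earlier results of these data known. Genes averaging at least 5 CPM in the higher group are described in every library, and up to 4 genes of each other list by smallest p. Gfi1b is given in addition, as the other transcription factor counted as lower. Lengths and exon overlaps came from GENCODE M21, promoters from RefSeq. Mkl1, an older name of Mrtfa, had no row. No pair of libraries of a group agreed within sampling noise (lowest chi-square per gene 123). On counts simulated from these libraries (16022 genes), 5, 30, 43 and 47 of 50 genes changed 2-, 4-, 8- and 16-fold were recovered, with 11 unchanged genes called. Alternatives were other scalings, filters and tests (DESeq2 1.42.0, limma 3.58.1), the replicate block, each library left out and, chosen after seeing the data, counts without genes that passed the filter through KO alone and removal of length and GC trends, for which 89.5% of tested genes had values. A result on a further gene is not reported here.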

Additional observations from a re-analysis of the deposited data

How the results depend on the processing

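The median log2 fold change of the tested genes stayed between 0.73 and 0.94 over all 15 alternatives, and the medians of adhesion, granule and signalling genes stayed positive. Nfe2, the tested gene of the fourth role, stayed negative (-0.69 to -0.22). Across fits that each left out 1 library, the genes higher at an unadjusted p under 0.05 numbered 9 (without control replicate 2) to 15 of the roster, 4 to 6 adhesion receptors and 0 to 5 signalling genes, and the genes lower numbered 0 to 2. Over all genes these fits gave 562 to 1339 higher and 573 to 1299 lower, with 0 to 1 higher at an adjusted p under 0.05. DESeq2 called 373 genes higher and 388 lower at an adjusted p under 0.05 (1401 and 1427 unadjusted), 10 of the roster, 4 of the adhesion receptors and 6 of the granule genes, and 2 of the roster were lower unadjusted; the cause of the difference from edgeR was not tested. With at least 5 CPM in 3 libraries, 1 gene was called lower, with fewer genes tested.

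Signs reversed for Tbxas1 (0.08 without KO replicate 1, 0.34 without control replicate 2 and down to -0.33 without control replicate 3), Ppbp (-0.73 without KO replicate 2, up to 2.85 without control replicate 1) and Nbeal2 (-0.42 with length and GC trends removed). With the replicate block, 2 signalling genes and 12 of the roster were higher at an unadjusted p under 0.05. Libraries that share a number had deviations from their group means correlated at 0.04, 0.02 and 0.03, and each KO library correlated best with the control of its own number. The labels do not say whether a number pairs libraries, and such small correlations over 3 libraries per group cannot decide it. Low counts in at least 1 group limit the precision for Mpig6b, P2ry12, Thbs1 and Tubb1. The precision is limited too for Clec1b (SE 1.54) and Ppbp (SE 1.41), with 0 and 11 counts in control replicate 3.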
